A study of Mus musculus with 23 samples.

Results

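Expression of 7 subunit genes of the GABA-A receptor (Gabra2, Gabra3, Gabra4, Gabra5, Gabrb1, Gabrb2 and Gabrd) was compared in the hippocampal CA3 field of UBB+1 transgenic (tg) and wild-type mice. The members are all probe sets that the array annotation assigns to 1 of these genes and to no other, 21 of the 45136 probe sets tested, for 7 of the 18192 genes that have such a probe set. Gabra2 and Gabrb2 have 5 probe sets each, Gabrb1 has 4, Gabra3, Gabra4 and Gabrd have 2 each, and Gabra5 has 1. Of the 21 probe sets, 5 are on the MOE430A array and 16 on the MOE430B array. The UBB+1 tg mice are heterozygous for UBB+1, an aberrant human ubiquitin with an extended carboxyl terminus that inhibits the proteasome, expressed under the CaMKIIα promoter, which is active in excitatory forebrain neurons. The wild-type mice are their non-transgenic littermates, and both genotypes are of the C57BL/6J background and were 18 months old. All UBB+1 tg mice come from 1 transgenic line. RNA of the CA3 field, cut by laser from stained brain sections, was amplified in 2 rounds and hybridised to both arrays, with 6 UBB+1 tg mice on each array, against 5 wild-type mice on MOE430A and 6 on MOE430B. Animals are named here by genotype and number (tg270, wt287), and levels are log2 values of the intensity after RMA, a method that corrects background and brings all arrays to the same distribution. Levels of different probe sets are not comparable with each other, so each is set only against itself in other animals and, as a guide to brightness, against the percentile it holds on its array.

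GABA-A receptors are chloride channels opened by GABA, the main inhibitory transmitter of the forebrain. Each channel is a ring of subunits, most often with alpha and beta subunits together with a gamma or a delta subunit, and GABA binds between alpha and beta. The alpha subunit shapes the kinetics, the drug response and the place of the receptor: α2 is enriched at synapses on the axon initial segment of pyramidal cells, α5 is highly expressed in the hippocampus and lies largely outside synapses, and α4 often pairs with δ in extrasynaptic receptors that carry tonic inhibition. Receptors on the cell surface are turned over by endocytosis, and their subunits can be ubiquitinated and degraded by the proteasome.

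Most of the subunit genes have another subunit gene as a neighbour. By RefSeq on GRCm38.p6, Gabra2 (chr5:70958392-71095849), Gabra4 (chr5:71569734-71658308) and Gabrb1 (chr5:71657921-72149572) share a cluster on chromosome 5 with Gabrg1. Gabra5 lies on chromosome 7 (chr7:57407669-57591016) next to Gabrg3, Gabrb2 on chromosome 11 (chr11:42419515-42632591) with Gabra6, and Gabra3 on the X chromosome (chrX:72432676-72656919) with Gabre and Gabrq. Gabrd stands apart from these clusters on chromosome 4 (chr4:155384979-155398098). Gabra4 and Gabrb1 are transcribed in opposite directions and their 5′ ends overlap by 388 bases. Windows of 300 bases are shown for these neighbours and for Gabrb2, the gene with the largest difference among the members. The 6 probe sets of the neighbours all had differences above 0, as did 51.7% of all probe sets on MOE430A and 47.6% on MOE430B. The windows are RefSeq sequences on GRCm38.p6, 5′ to 3′ on the strand of the gene. Capitals mark the GC box (GGGCGG or its reverse complement CCGCCC), the motif bound by Sp1. The Gabra4 window is chr5:71658259-71658558 on the minus strand, the first of 2 Gabrb1 windows is chr5:71657671-71657970 on the plus strand, and the first of 3 Gabrb2 windows is chr11:42420190-42420489 on the plus strand. The Gabra4 and Gabrb1 windows lie mostly upstream of the gene spans given above, while the Gabrb2 window lies inside its gene span.
Gabra4: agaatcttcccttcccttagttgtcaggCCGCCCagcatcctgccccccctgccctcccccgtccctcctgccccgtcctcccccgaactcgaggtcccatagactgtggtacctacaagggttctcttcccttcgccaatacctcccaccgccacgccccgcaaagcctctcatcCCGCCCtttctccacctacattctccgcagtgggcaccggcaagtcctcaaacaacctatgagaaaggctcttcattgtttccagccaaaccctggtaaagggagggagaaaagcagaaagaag
Gabrb1: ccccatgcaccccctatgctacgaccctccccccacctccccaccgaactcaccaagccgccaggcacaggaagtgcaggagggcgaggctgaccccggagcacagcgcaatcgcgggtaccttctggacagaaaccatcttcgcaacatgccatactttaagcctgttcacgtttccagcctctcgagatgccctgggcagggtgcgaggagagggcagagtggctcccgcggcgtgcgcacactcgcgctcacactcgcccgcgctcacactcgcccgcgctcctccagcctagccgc
Gabrb2: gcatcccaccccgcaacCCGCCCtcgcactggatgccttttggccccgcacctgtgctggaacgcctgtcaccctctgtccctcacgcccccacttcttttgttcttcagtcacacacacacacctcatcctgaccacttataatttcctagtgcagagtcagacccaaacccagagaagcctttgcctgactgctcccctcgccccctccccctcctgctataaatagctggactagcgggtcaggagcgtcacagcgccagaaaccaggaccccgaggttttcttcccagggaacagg
The GC content was 58.7% in the Gabra4 window, 66.0% in the Gabrb1 window and 59.0% in the Gabrb2 window. The Gabra4 window holds 2 GC boxes, the Gabrb2 window holds 1 together with 1 TATAAA, and the Gabrb1 window holds neither motif on either strand. Of 32851 windows of the same length, 35.7% hold a GC box and 13.6% hold TATAAA (or TTTATA), so the matches are common ones. The cyclic AMP response element TGACGTCA (in 1.79% of all windows) and the EGR motif GCGTGGGCG (in 0.612%) were not found in any of the 10 windows of the members. Gabrd has no window in the table used.

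The transgene label was checked with the MOE430A probe set that detects the promoter of the transgene. It was at 8.45 to 9.34 in the 6 UBB+1 tg mice, against 6.41 to 6.85 in the 5 wild-type mice of that array. The wild-type mouse wt331, which is only on MOE430B, could not be checked in this way. Arrays were split into 3 sets, a fixed number, by their correlation over all probe sets (r = 0.945 to 0.991 between MOE430A arrays and 0.936 to 0.987 between MOE430B arrays), and these sets cross the genotypes. The sets differed in how much brighter the 3′ than the 5′ controls for Gapdh and β-actin were (mean log2 difference), a measure of how far the amplified RNA reaches towards the 5′ end. On MOE430B it was 6.22 (tg270) and 6.39 (wt289) in the high set, 3.73 (tg271), 2.41 (wt287) and 2.56 (wt290) in the low set, and 4.47 to 4.97 in the 4 UBB+1 tg and 3 wild-type mice of the middle set. MOE430A arrays of the same animals fell into the same sets. Of the CA3 markers, 9 of 12 probe sets were above the median of their array, among them Bok at 10.87 ± 0.52 in UBB+1 tg and 10.97 ± 0.72 in wild-type mice (SD, n = 6 and 5). Of the dentate granule cell markers only 2 of 11 were, and the 3 probe sets of Prox1, which defines these cells, were at the 1.78, 9.19 and 13.5 percentile of their arrays. Of the interneuron markers, 10 of 16 probe sets on MOE430A and 3 of 6 on MOE430B were above the median of their array. At an unadjusted p of 0.05 by limma, 0 of these 22 passed, against 3.48% and 3.05% of all probe sets on the 2 arrays. The log2 difference (UBB+1 tg minus wild type) was above 0 for 6 of the 16 and 1 of the 6. It ranged from -0.82 to 0.30 on MOE430A and from -0.15 to 0.08 on MOE430B.

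No probe set of a subunit gene passed the test between the genotypes across all probe sets (limma, Benjamini-Hochberg adjustment over all probe sets of an array, false discovery rate of 10%), with adjusted p-values of 0.984 to 1. Neither did any other probe set on these arrays, so that 0% was called on each. At an unadjusted p of 0.05, 0 of the 5 member probe sets on MOE430A and 0 of the 16 on MOE430B passed, against 3.48% of all probe sets on MOE430A and 3.05% on MOE430B. The ranges of the genotypes overlapped for all 21 probe sets. The difference was above 0 for 16 of them and below 0 for 5, with a median log2 difference of 0.10 on MOE430A and 0.13 on MOE430B, where the median over all probe sets was 0.00 and -0.01. By array it was above 0 for 4 of 5 on MOE430A and 12 of 16 on MOE430B, against 51.7% and 47.6% of all probe sets. The member probe sets are not independent, since several belong to 1 gene and all share the animals. In CA3 tissue cut as a whole, fewer cells of a type and less RNA per cell cannot be told apart.

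**Figure D1:**
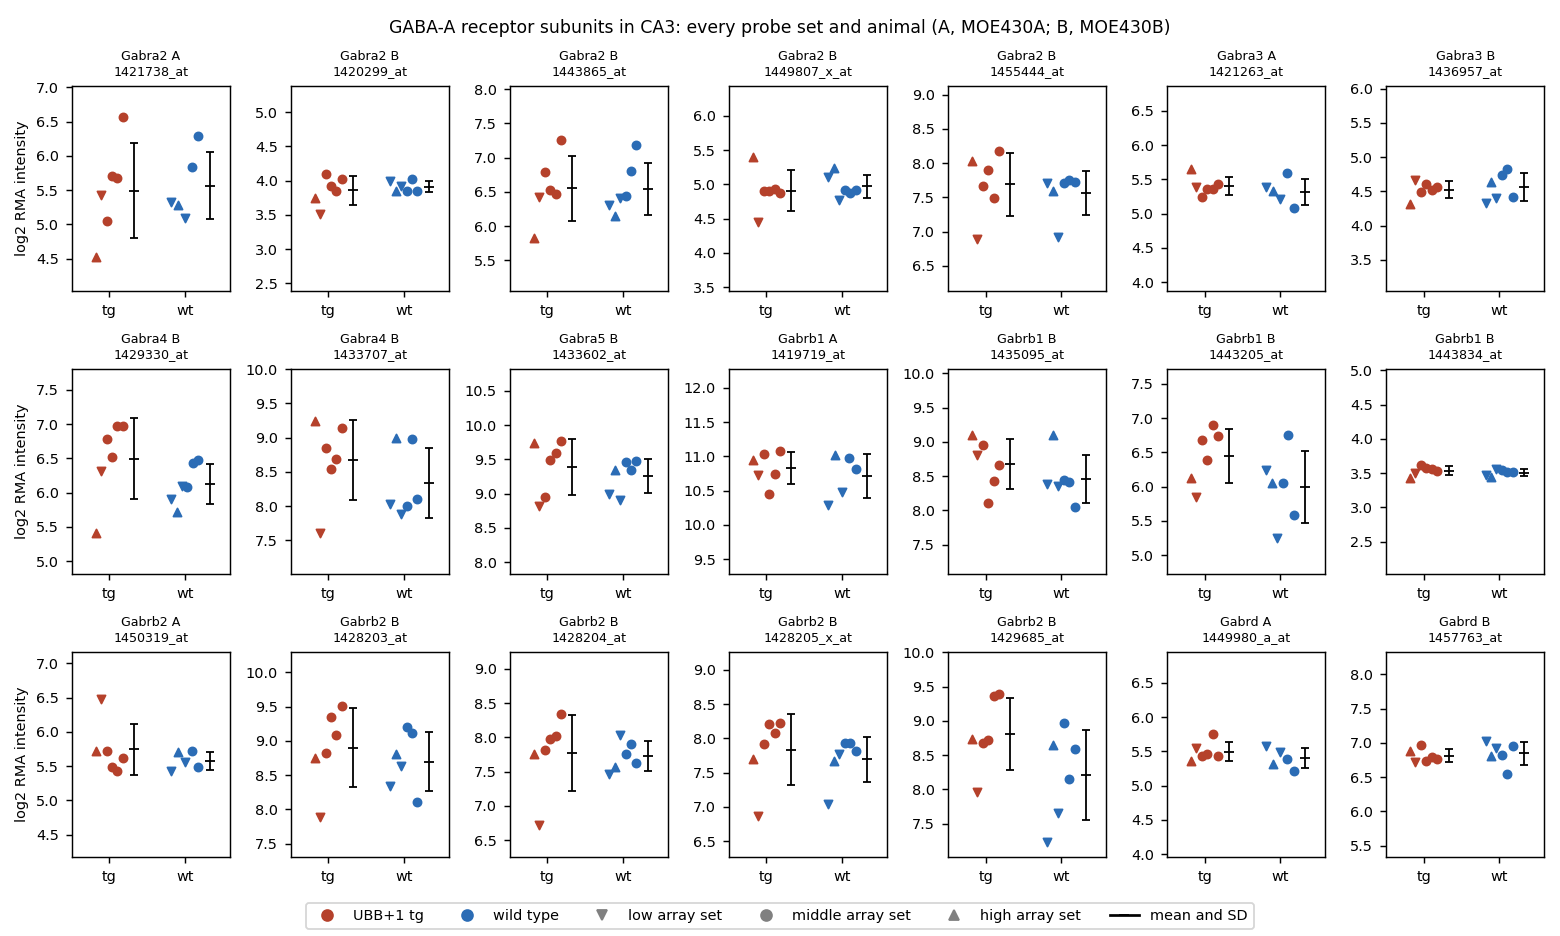
Log2 RMA intensity of every probe set of the 7 subunit genes, 1 point per animal, with UBB+1 tg (tg, red) left and wild type (wt, blue) right in each panel, bars for the mean and SD, and the marker shape for the array set. Each panel spans 3 log2 units around its own mean, and in all 21 panels the ranges of the genotypes overlap.

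Of the alpha subunits, α4 had the largest differences, which did not pass the test. Gabra4 was read by 2 probe sets of MOE430B. For 1433707_at, at the 95th percentile of the array, the levels were 9.24, 7.61, 8.85, 8.54, 8.68 and 9.14 in the UBB+1 tg mice tg270, tg271, tg273, tg274, tg276 and tg277, against 8.04, 8.99, 7.89, 8.01, 8.98 and 8.11 in the wild-type mice wt287, wt289, wt290, wt291, wt321 and wt331. Of the UBB+1 tg mice, 5 of 6 lay above the mean of the wild type, while tg271 was the lowest of all animals. The log2 difference was 0.34 with a 95% interval of -0.27 to 0.96 (adjusted p = 1 by limma, 8.68 ± 0.59 in UBB+1 tg and 8.34 ± 0.51 in wild type, SD, n = 6 each). For 1429330_at, in the same order of animals, the levels were 5.41, 6.32, 6.78, 6.52, 6.98 and 6.98 in the UBB+1 tg mice, against 5.91, 5.72, 6.10, 6.08, 6.43 and 6.48 in the wild-type mice. Here 4 UBB+1 tg mice were above the highest wild-type mouse, and tg270 was below the lowest. The log2 difference was 0.38 with an interval of -0.15 to 0.90 (adjusted p = 1 by limma). With 1 animal left out in turn it was 0.28 to 0.59, the lowest without tg277 or tg276 and the highest without tg270 (unadjusted p = 0.0033, adjusted p = 1 by limma). For 1433707_at this range was 0.23 (without tg270) to 0.56 (without tg271, unadjusted p = 0.0333, adjusted p = 0.768 by limma). Each of these p-values comes from leaving out the lowest UBB+1 tg mouse of the probe set. That raises the difference by construction, so no support is drawn from them. In those fits 3.6% (without tg270) and 6.35% (without tg271) of all MOE430B probe sets passed an unadjusted p of 0.05 by limma.

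The Gabra4 probe sets did not order the animals in the same way. The animal tg270 was the highest UBB+1 tg mouse for 1433707_at and the lowest for 1429330_at. The wild-type mouse of the same array set, wt289, was likewise the highest of its genotype for 1433707_at and the lowest for 1429330_at. The mean of the high set was above that of the middle set by 0.50 for 1433707_at (9.12 against 8.62) and below it by 1.04 for 1429330_at (5.57 against 6.61). The low set was below the middle set for both. The largest gap between set means was 1.27 for 1433707_at, at the 98.2 percentile of all MOE430B probe sets, and 1.04 for 1429330_at at the 96.6 percentile, where the median probe set had 0.233. Within the middle set the genotypes differed by 0.44 for 1433707_at (8.81 in UBB+1 tg and 8.36 in wild type) and by 0.49 for 1429330_at (6.81 in UBB+1 tg and 6.33 in wild type), with 4 UBB+1 tg and 3 wild-type mice. When limma was fitted with the array sets as blocks, the log2 difference of 1429330_at was 0.31, with an unadjusted p of 0.0406 and an adjusted p of 0.900, and that of 1433707_at was 0.22, with an unadjusted p of 0.257 and an adjusted p of 0.909. Within the low set, which holds only tg271 of the UBB+1 tg mice, the difference of 1433707_at was -0.35.

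Gabra5, the α5 subunit of the hippocampus, was bright, at the 97.6 percentile of MOE430B. Its single probe set (1433602_at) was at 9.74, 8.82, 8.95, 9.49, 9.59 and 9.77 in the UBB+1 tg mice, against 8.99, 9.35, 8.90, 9.46, 9.34 and 9.48 in the wild-type mice, in the order of animals used for Gabra4. The UBB+1 tg values spread on both sides of the wild-type values: 4 were above the highest wild-type mouse and tg271 was below the lowest. The log2 difference was 0.14 with an interval of -0.25 to 0.52 (adjusted p = 1 by limma), and 0.02 within the middle array set. The low array set was below the middle set by 0.54.

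Gabra2, which encodes the α2 subunit of axo-axonic synapses, had differences on both sides of 0. Its brightest probe set, 1455444_at at the 90.1 percentile of MOE430B, was at 8.03, 6.90, 7.67, 7.90, 7.49 and 8.18 in the UBB+1 tg mice, against 7.71, 7.60, 6.92, 7.71, 7.75 and 7.72 in the wild-type mice. The lowest animal of each genotype, tg271 and wt290, belongs to the low array set. The log2 difference was 0.12 with an interval of -0.33 to 0.57. The differences of the other Gabra2 probe sets were 0.00 for 1443865_at, -0.06 for 1449807_x_at, -0.06 for 1420299_at and -0.07 for 1421738_at on MOE430A. Of these, 1443865_at was above the array median, and 1420299_at was dim at the 11.9 percentile. On MOE430A, 1421738_at spread most among all members, from 4.52 (tg270) to 6.57 (tg277) in the UBB+1 tg mice and from 5.09 (wt290) to 6.29 (wt321) in the wild-type mice, and its interval of -0.80 to 0.66 was the widest of the 21. The sets again split the probe sets of this gene: in the high set, 1449807_x_at was above the middle set by 0.42, while 1443865_at was below it by 0.80 and 1421738_at by 0.95.

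Gabra3, the α3 subunit, was dim on both arrays, at the 29.1 percentile of MOE430A (1421263_at) and the 26.4 percentile of MOE430B (1436957_at). The levels were 5.25 to 5.64 in UBB+1 tg and 5.09 to 5.59 in wild-type mice for 1421263_at, with a log2 difference of 0.09 (interval -0.13 to 0.30). They were 4.32 to 4.67 in UBB+1 tg and 4.33 to 4.83 in wild-type mice for 1436957_at, with a difference of -0.03 (interval -0.24 to 0.18).

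**Figure D2:**
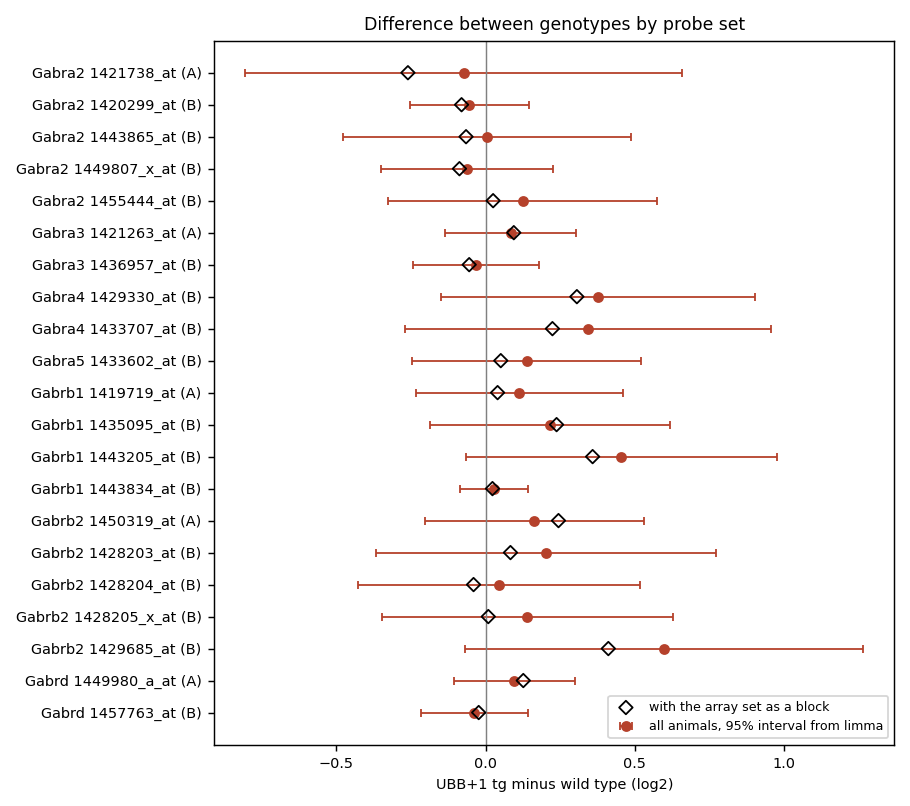
UBB+1 tg minus wild type (log2) of each probe set, with 95% intervals from limma over all animals (red) and the value from the fit with array sets as blocks (open diamonds). A and B name the arrays, and all 21 intervals include 0.

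The beta subunits, which form part of the GABA site and are phosphorylated by several kinases, had differences above 0 for all 9 probe sets. Of all probe sets, 51.7% on MOE430A and 47.6% on MOE430B were above 0, and the 9 belong only to Gabrb1 and Gabrb2 and share the animals. The largest of the 21 belonged to Gabrb2, the β2 subunit. Its probe set 1429685_at, at the 95th percentile of MOE430B, was at 8.74, 7.96, 8.68, 8.72, 9.36 and 9.40 in the UBB+1 tg mice, against 7.24, 8.65, 7.65, 8.97, 8.15 and 8.60 in the wild-type mice, in the order used for Gabra4. Only tg276 and tg277 were above the highest wild-type mouse, and the lowest animals were wt287, wt290 and tg271, the members of the low array set. The means were 8.81 ± 0.53 in UBB+1 tg and 8.21 ± 0.66 in wild type (SD, n = 6 each), a log2 difference of 0.60, or 1.51-fold, with an interval of -0.07 to 1.27 (unadjusted p = 0.0749 and adjusted p = 1 by limma, exact permutation p = 0.119 over 924 splits, two-sided). That p was the smallest among the members. The low set lay below the middle set by 1.22 (7.62 against 8.84), and it held 1 UBB+1 tg and 2 wild-type mice. With array sets as blocks the difference was 0.41 (unadjusted p = 0.0394, adjusted p = 0.900 by limma), and within the middle set it was 0.47 (9.04 in UBB+1 tg and 8.57 in wild type).

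The other Gabrb2 probe sets did not repeat the size of this difference. Of 3 further probe sets on MOE430B above the 90th percentile, 1428203_at had a log2 difference of 0.20 (interval -0.37 to 0.77), 1428205_x_at of 0.14 (-0.35 to 0.63) and 1428204_at of 0.05 (-0.43 to 0.52). In these 3 probe sets tg271 was the lowest of all animals, at 7.89, 6.86 and 6.73, while the other 5 UBB+1 tg mice exceeded the mean of the wild type. Without tg271 the differences were 0.41 for 1428203_at, 0.33 for 1428205_x_at and 0.26 for 1428204_at. The unadjusted p-values were 0.078, 0.0569 and 0.0655 and the adjusted p-values 0.768 to 0.769 by limma. Leaving out the lowest UBB+1 tg mouse raises the difference by construction, so no support is drawn from these values. In that fit 6.35% of all MOE430B probe sets passed an unadjusted p of 0.05 by limma, against 3.05% with all animals. All 3 were lower in the low set than in the middle set, by 0.74, 0.79 and 0.51. With array sets as blocks the differences of the 3, in the same order, were 0.08, 0.01 and -0.04. The fifth probe set, 1450319_at on MOE430A, was dim at the 35.4 percentile and ran the other way for tg271, at 6.48 against 5.43 to 5.73 in the other UBB+1 tg mice and in the wild-type mice. Its log2 difference was 0.16, and 0.02 without tg271.

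Gabrb1, the β1 subunit and the neighbour of Gabra4, held the highest percentile of the members on MOE430A. Its probe set 1419719_at, at the 96.6 percentile, was at 10.95, 10.73, 11.03, 10.45, 10.74 and 11.07 in the UBB+1 tg mice, against 10.29, 11.02, 10.48, 10.97 and 10.82 in the wild-type mice wt287, wt289, wt290, wt291 and wt321. The values overlapped over most of their range, and the log2 difference was 0.11 with an interval of -0.23 to 0.46 (adjusted p = 0.984 by limma). On MOE430B, 1435095_at had a difference of 0.21 (interval -0.19 to 0.62). Its high set stood above the middle set by 0.66, with tg270 at 9.09 and wt289 at 9.11. The probe set 1443205_at was at 6.13, 5.85, 6.68, 6.39, 6.90 and 6.74 in the UBB+1 tg mice, against 6.25, 6.06, 5.26, 6.06, 6.75 and 5.59 in the wild-type mice. Here 5 of 6 UBB+1 tg mice exceeded the mean of the wild type and 1 was above the highest wild-type mouse, wt321. The log2 difference was 0.45 with an interval of -0.07 to 0.98 (unadjusted p = 0.0822 and adjusted p = 1 by limma, exact permutation p = 0.128). The last probe set, 1443834_at, was at the 4.92 percentile, with 3.44 to 3.62 in UBB+1 tg and 3.44 to 3.56 in wild-type mice. Averaged over its 3 probe sets of MOE430B, Gabrb1 had a log2 difference of 0.23 with an unadjusted p of 0.0486 and an adjusted p of 1 by limma, in a fit where 3.19% of all genes passed an unadjusted p of 0.05.

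Gabrd, the δ subunit of extrasynaptic receptors, had narrow intervals close to 0. It is known as a gene of dentate granule cells, whose markers were mostly dim in this tissue. Its brighter probe set, 1457763_at, was nevertheless at the 81st percentile of MOE430B. The levels of 1457763_at were 6.88, 6.72, 6.98, 6.74, 6.79 and 6.76 in the UBB+1 tg mice, against 7.03, 6.80, 6.93, 6.82, 6.55 and 6.96 in the wild-type mice. All UBB+1 tg values lay within the wild-type range. The log2 difference was -0.04 with an interval of -0.22 to 0.14, so that a difference of more than 1.10-fold up was outside the interval. On MOE430A, 1449980_a_at was dim at the 30.7 percentile and had a difference of 0.10 (interval -0.11 to 0.30). The array set means of 1457763_at lay within 0.0924 of each other, the smallest gap among the members and the 13.7 percentile of the array.

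**Figure D3:**
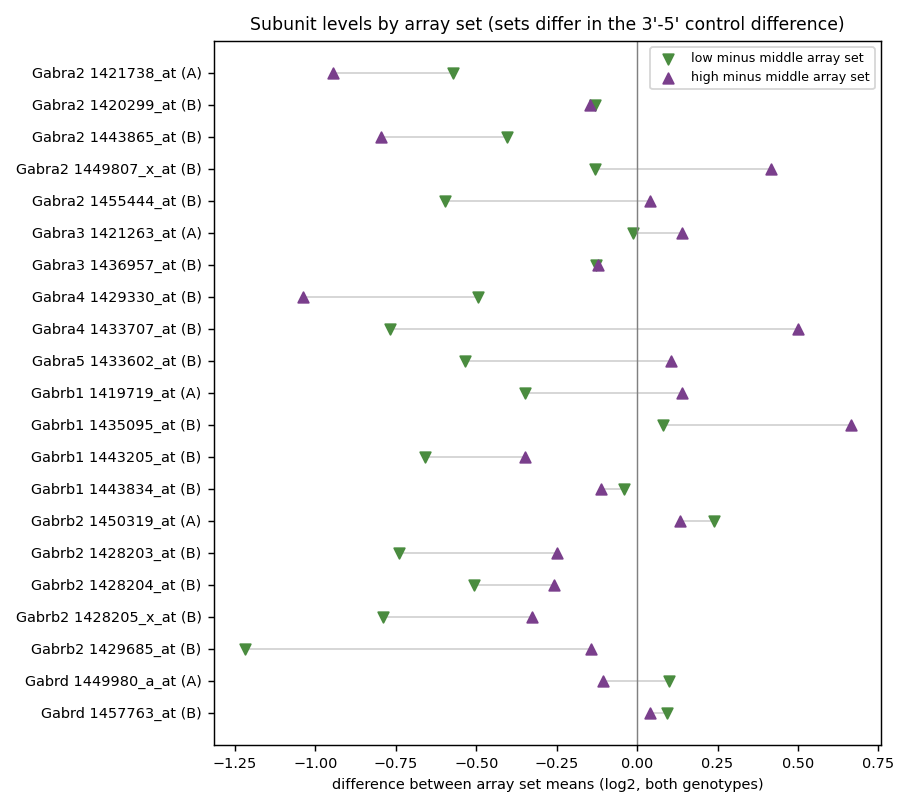
Difference between the means of the array sets (log2), over animals of both genotypes, for each probe set: low minus middle set (green, pointing down) and high minus middle set (purple, pointing up). On MOE430B the low set lay below the middle set for 14 of 16 probe sets, and for Gabra2, Gabra4 and Gabrb1 the high set lay above it for some probe sets and below it for others.

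Across the members, levels also differed between the array sets and between single animals. On MOE430B the low set was below the middle set for 14 of 16 probe sets, and the high set for 10 of 16. The animal tg271 was the lowest of the UBB+1 tg mice for 11 of the 16 probe sets, and tg277 the highest for 8. Of the wild-type mice, wt290 was the lowest for 5 and wt321 the highest for 5. Within the middle set of MOE430B, 14 of the 16 differences were above 0, with a median of 0.15 and the largest at Gabrb1 1443205_at (0.54) and Gabra4 1429330_at (0.49). Within the low set 6 of 16 were above 0 with a median of -0.19, and within the high set 9 of 16 with a median of 0.05. On MOE430A, 2 of 5 differences were above 0 within the middle set (median -0.04), 5 of 5 within the low set (median 0.22) and 3 of 5 within the high set (median 0.03). The same counts between and within sets were not made over all probe sets. The member counts therefore cannot be set against the arrays as a whole. With the 3′ to 5′ measure as a covariate in limma, Gabra4 1433707_at had a log2 difference of 0.14, Gabrb2 1429685_at of 0.38 and Gabra5 of 0.02. Gabrb1 1443205_at had a difference of 0.40, and all of these were smaller than without the covariate. That of Gabra4 1429330_at was larger, at 0.45 against 0.38. In that fit, 0 of the 21 probe sets passed an unadjusted p of 0.05.

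Of the other genes of GABA transmission in 4 lists, 2 of 80 probe sets (2.50%) passed an unadjusted p of 0.05, a share near the 3.48% and 3.05% of all probe sets, and none passed the false discovery rate. Of the other GABA-A subunits, 8 of 12 had a probe set of their own (14 probe sets), and the other genes of the list were not analysed here. In this list 1 probe set passed that p, namely that of Gabrr2, a rho subunit known from the retina, which was dim with 5.39 ± 0.09 in UBB+1 tg and 5.21 ± 0.11 in wild type (SD, n = 6 and 5). Next by p came Gabrr1, with a log2 difference of 0.27, and Gabrp, with log2 differences of 0.15 (1424647_at) and -0.01 (1451424_at). Gabrg1, a gamma subunit of the chromosome 5 cluster, had a log2 difference of 0.19 in its brighter probe set (1460408_at). The median difference was 0.04 on MOE430A and -0.01 on MOE430B.

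Among 19 of 20 genes for anchoring and trafficking of the receptor, 0 of 43 probe sets passed that p. The 3 genes with the smallest p had probe sets on both sides of 0. Ubqln1, which binds the receptor and slows its degradation, had log2 differences of 0.36, 0.13 and -0.06. Plcl1, which takes part in the insertion of receptors, had log2 differences of 0.27 and -0.03. Gabarapl2, a relative of the receptor-associated protein GABARAP, had log2 differences of 0.14 on MOE430B and -0.49 on MOE430A. Gephyrin (Gphn), the scaffold of inhibitory synapses, had log2 differences of 0.28, 0.18 and -0.22 in its 3 probe sets. Of 7 of 8 genes for the synthesis, release, uptake and breakdown of GABA, 1 of 14 probe sets passed. It belonged to Abat, the transaminase that breaks GABA down, with 7.41 ± 0.14 in UBB+1 tg and 7.01 ± 0.25 in wild type (SD, n = 6 and 5), a log2 difference of 0.40 ± 0.12 (SE), an unadjusted p of 0.0053 and an adjusted p of 0.984 by limma. Of the UBB+1 tg mice, 5 of 6 were above the highest wild-type mouse, and the other Abat probe set (1422226_at), which was dim, had a difference of -0.02. Aldh5a1, the dehydrogenase of the next step of GABA breakdown, had a log2 difference of 0.19. Gad1, which makes GABA, had log2 differences of 0.30 in its bright probe set (1416561_at) and -0.05 in its dim one, and Gad2, the other GABA-synthesising enzyme, had -0.15 (1429589_at) and 0.02. Among 4 of 6 genes of the GABA-B receptor and of chloride extrusion, 0 of 9 probe sets passed. Slc12a5, the chloride exporter KCC2 that sets the driving force of the GABA-A channel, was at 11.59 ± 0.14 in UBB+1 tg and 11.38 ± 0.30 in wild type (SD, n = 6 and 5), with a log2 difference of 0.22, and of -0.10 in its dim probe set. Gabbr1, a subunit of the GABA-B receptor, had log2 differences of -0.16 to 0.13 in 4 probe sets, and Kctd16, an auxiliary subunit of that receptor, had -0.08 in its single probe set.

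**Figure D4:**
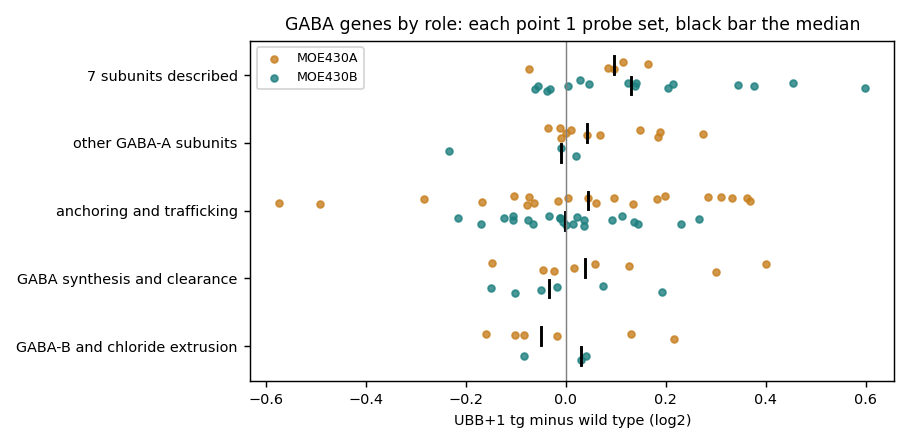
UBB+1 tg minus wild type (log2) of each probe set of the 7 subunits described and of 4 lists of GABA genes, by array (orange MOE430A, green MOE430B), with a black bar at the median. The medians of the 7 subunits were 0.10 on MOE430A and 0.13 on MOE430B, and those of the other lists lay between -0.05 and 0.04.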

How the data were processed

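Total RNA of laser-cut CA3 (5 ng) was amplified in 2 rounds and hybridised to 1-colour Affymetrix MOE430A and MOE430B arrays. The authors processed each kind of array with RMA. The deposited MOE430A values are intensities on a linear scale, rounded to whole numbers, and were turned to log2 here. The deposited MOE430B values are log2 RMA values and were used as given. The RMA version is not given in the sources used here. Genotypes and animals were taken from the sample labels, which do not tie animals to litters or batches. Precision is limited by how many arrays there are. Control probe sets (64 on each array) and the transgene probe set were left out of the tests, leaving 22625 probe sets on MOE430A and 22511 on MOE430B. Genes were taken from the platform annotation, positions and sequences from RefSeq on GRCm38.p6. Probe positions within the transcripts were not used here.

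The genotypes were compared (UBB+1 tg minus wild type) with limma 3.58.1 under R 4.3.3 (lmFit, eBayes), over all probe sets of an array, at a false discovery rate of 10% by Benjamini and Hochberg. The study's methods name limma and that rate as a check on an analysis with the ChipInspector software, which was not run here. Exact permutation tests over animals were two-sided. Simulated data with 200 changed probe sets were used to test the fit. Array sets came from complete-linkage clustering of the arrays, with the number of sets fixed at 3, and are not conditions. Named genes are all members, of each GABA list the 3 genes with the smallest p, and Bok, the brightest CA3 marker. Gphn, Gad1, Gabrg1, Prox1, Cacng5 and Pcp4 were chosen after their values were seen. The members and lists were chosen with earlier results of these data known. Some results are left out of this account.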

Additional observations from a re-analysis of the deposited data

Results flagged for a closer look

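In 5 of 42 groups (21 probe sets, 2 genotypes), 1 animal stood far from the others of its genotype by Dixon's criterion, which chance meets in about 1 in 20 groups. For Gabrb2 on MOE430A (1450319_at), tg271 was at 6.476, against 5.43 to 5.73 in the other UBB+1 tg mice. For Gabrb2 on MOE430B (1428204_at), tg271 was at 6.726, against 7.76 to 8.35 in the other UBB+1 tg mice. For Gabrb2 1428205_x_at, wt287 was at 7.045, against 7.68 to 7.93 in the other wild-type mice. For Gabra2 1455444_at, wt290 was at 6.921, against 7.60 to 7.75 in the other wild-type mice. For Gabrb1 1435095_at, wt289 was at 9.106, against 8.06 to 8.44 in the other wild-type mice. The animals tg271, wt287 and wt290 form the low array set, and wt289 belongs to the high set.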

How the results depend on the processing

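No member passed a false discovery rate of 10% in any alternative run, and the lowest adjusted p was 0.721 (limma). The number past an unadjusted p of 0.05 stayed at 0 on MOE430A. On MOE430B it was 2 with array weights (Gabrb2 1429685_at and Gabrb1 1443205_at, where 6.13% of all probe sets passed), 2 with array sets as blocks (Gabra4 1429330_at and Gabrb2 1429685_at, 5.06% of all) and 1 with probe sets averaged per gene (Gabrb1, 3.19% of all genes). Leaving out 1 animal gave 0 to 3 on MOE430B: 3 without tg271 (6.35% of all probe sets), and 1 each without tg270 (3.60% of all), wt291 (3.82%) and wt321 (3.41%). No paired analysis was possible because UBB+1 tg and wild-type mice carry different numbers and the labels name no litters.

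Of 174 values under other settings 169 kept their sign. Array weights gave 0.196 for Gabra2 1421738_at and 0.0131 for Gabra2 1420299_at, a floor at the 25th percentile gave 0.0336 for Gabra2 1421738_at, and array sets as blocks gave -0.0401 for Gabrb2 1428204_at and -0.0653 for Gabra2 1443865_at. The floor gave no value for Gabrb1 1443834_at and Gabra2 1420299_at, which were at the floor in every animal, and leaving out dim probe sets kept 13 of 21 members. Of 247 values with 1 animal left out 18 changed sign, with ranges of -0.289 to 0.120 for Gabra2 1421738_at, -0.102 to 0.0129 for 1420299_at, -0.137 to 0.149 for 1443865_at, -0.159 to 0.0308 for 1449807_x_at and -0.00576 to 0.283 for 1455444_at, of -0.0781 to 0.0227 for Gabra3 1436957_at and of -0.0692 to 0.255 for Gabrb2 1428204_at. The cause of these changes was not tested.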

Other observations

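For the brightest probe set of each member, the genes with the most similar levels over the 11 (MOE430A) or 12 (MOE430B) animals were picked as the highest Pearson r of all genes on the array, which makes a high r a result of the search. All arrays fall into the sets described above, which these values share. For Gabra2 they were Zbtb4 (r = 0.937) and Lekr1 (0.900), for Gabra4 Ube2v2 (0.903) and Fxr1 (0.891), and for Gabra5 Epm2aip1 (0.940) and Ints10 (0.920). For Gabrb1 they were Slc41a3 (0.924) and Atp13a3 (0.917), for Gabrb2 Mars2 (0.936) and Tmem65 (0.927), for Gabra3 Clcn1 (0.931) and Lrriq4 (0.897), and for Gabrd Lpcat2 (0.866) and Ccnd3 (0.846). No other subunit of the GABA-A receptor was among them.

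Of the CA2 markers, 1 of 7 probe sets passed an unadjusted p of 0.05 by limma, against 3.48% of all probe sets on MOE430A and 3.05% on MOE430B. The probe set that passed was 1434785_at of Cacng5, an auxiliary subunit of AMPA receptors. It was at 7.51 ± 0.37 in UBB+1 tg and 6.80 ± 0.36 in wild type (SD, n = 6 and 5). The log2 difference was 0.71 ± 0.20 (SE), with an adjusted p of 0.984 by limma. The other Cacng5 probe set (1426330_at), dim at the 24.1 percentile, had a difference of 0.12. Differences were above 0 for 5 of 5 CA2 probe sets on MOE430A and 1 of 2 on MOE430B. Pcp4, another CA2 marker, ranged from 7.42 to 10.73 in UBB+1 tg and from 7.64 to 9.19 in wild-type mice. The part of CA2 tissue in the subunit values was not tested.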
